A study of Mus musculus with 16 samples.

Results

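Lysosomes are the acidic compartments in which cells break down macromolecules. Soluble acid hydrolases do the cutting in the lumen, activator proteins and carriers present lipids to them, membrane proteins line the organelle and move products and ions across it, and the vacuolar proton pump (V-ATPase) acidifies it. The MiT/TFE transcription factors (Tfeb, Tfe3 and Mitf) bind a short motif in the promoters of many lysosomal genes and raise their transcription when they enter the nucleus. Microglia, the resident macrophages of the brain, rely on this system to digest what they engulf.

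The genes described here were a fixed list of 55 that encode these enzymes, membrane proteins, pump subunits and factors, with the cathepsins left out. Of the 55, 54 had a row in the table used, which held 53850 genes, and Laptm4a was not analysed here. All 54 passed the filter on low values, among 19594 genes tested. They were read as 22 acid hydrolases, 4 lumenal activators and carriers, 9 membrane proteins, 6 subunits of the membrane-embedded V0 sector of the pump, 8 of its cytosolic V1 sector, 2 accessory pump subunits and 3 MiT/TFE factors.

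The samples were microglia sorted by flow cytometry from the cortex of young C57BL/6J mice, in a study of whether males and females respond differently to PLX3397, an inhibitor of the colony stimulating factor 1 receptor on which microglia depend for survival. The 4 groups of 4 libraries were males fed chow with PLX3397 for 1 week, males on control chow, females fed chow with PLX3397 for 1 week and females on control chow. No group carried a transgene or a targeted allele. The gate of the sort and the ages in days are not given in the sources used here, and nothing in the labels ties each sample to an animal of its own, so the p-values below measure the spread between these samples. In sorted RNA of this kind, fewer cells of a type and less RNA per cell cannot be told apart.

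Values are the authors' normalised counts, each gene's reads scaled by a factor of its library. Library totals on that scale were 32641505 to 39584145 in males on PLX3397 and 38410670.0 to 44162201 in the other groups. The microglial genes P2ry12, Tmem119, Cx3cr1, Csf1r, Fcrls, Sall1 and Siglech were present in every library, and their summed normalised count was 620845 to 871032 in males on PLX3397, 1544882 to 1657114 in male controls, 978129 to 1165194 in females on PLX3397 and 1486822 to 1803287 in female controls. A pair of libraries stood apart. Male PLX3397 replicate 3 had 14419 counts of the neutrophil gene S100a8, against 2020.5 to 3184 in the other males on PLX3397, and male control replicate 4 had 516 counts of Xist, the transcript of the inactive X chromosome, against 14.7 to 31.4 in the other male controls. Results that changed without these libraries are given with the values found without them.

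Changes are differences of means of log2(normalised count + 1), PLX3397 minus control, with their standard error (SE). Each was tested with limma over all 19594 genes and 16 libraries with Benjamini-Hochberg adjustment, and a gene was called at an adjusted p under 0.05. "Rose" and "fell" are used only of called genes.

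Many of the lysosomal genes moved in both sexes, mostly upwards. On PLX3397, 16 of the 54 rose in males and 7 fell, a called share of 42.6%, where 11.7% of all genes tested were called (4.16% higher and 7.52% lower). In females 19 rose and 1 fell, 37.0% of the 54, where 5.34% of all genes tested were called (2.67% higher and 2.67% lower). The median change of the 54 was 0.21 in males, against 0.021 over all genes tested, and 0.35 in females, against -0.0032. The gap between the sexes moved with the scaling. With equal library totals the medians were 0.37 in males, against 0.18 over all genes tested, and 0.34 in females, against -0.0084. After quantile normalisation they were 0.38 in males, against -0.012, and 0.35 in females, against -0.014. In males the 2 sets of 4 libraries did not overlap for 20 members that were higher and 7 that were lower, with 7.71% and 9.84% of all genes tested in those positions. In females the numbers were 25 and 1, with 5.13% and 5.26% of all genes tested. At an unadjusted p under 0.05 stood 31 of the 54 in males and 32 in females, with 23.8% and 17.1% of all genes tested. All genes tested are a rough benchmark, since their median SD within each group was larger than that of the 54. With the filter on low values raised to 50, 26 members were called in males and 21 in females. The shares of the 14541 genes tested at that filter were 16.6% and 7.74%.

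The genes that rose in both sexes numbered 15: the hydrolases Gla, Manba, Idua, Gusb, Man2b1, Neu1, Ppt1 and Gaa, the cholesterol carrier Npc2, the membrane proteins Cd68 and Lamp1, the pump subunits Atp6v0c, Atp6v1a and Atp6v1b2, and the factor Mitf. Arsb alone among the 54 fell in both. Called in males and not in females were Mcoln1, which rose, and Atp6v0a1, Hgsnat, Laptm5, Lgmn, Smpd1 and Tfe3, which fell. Called in females and not in males were Atp6v0e, Atp6v1c1, Atp6v1d and Psap, all of which rose. The remaining 27 were called in neither sex. No gene of the 19594 was called in the test of the difference between the responses of females and males, so these lists do not show that the sexes differed at any member.

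**Figure D1:**
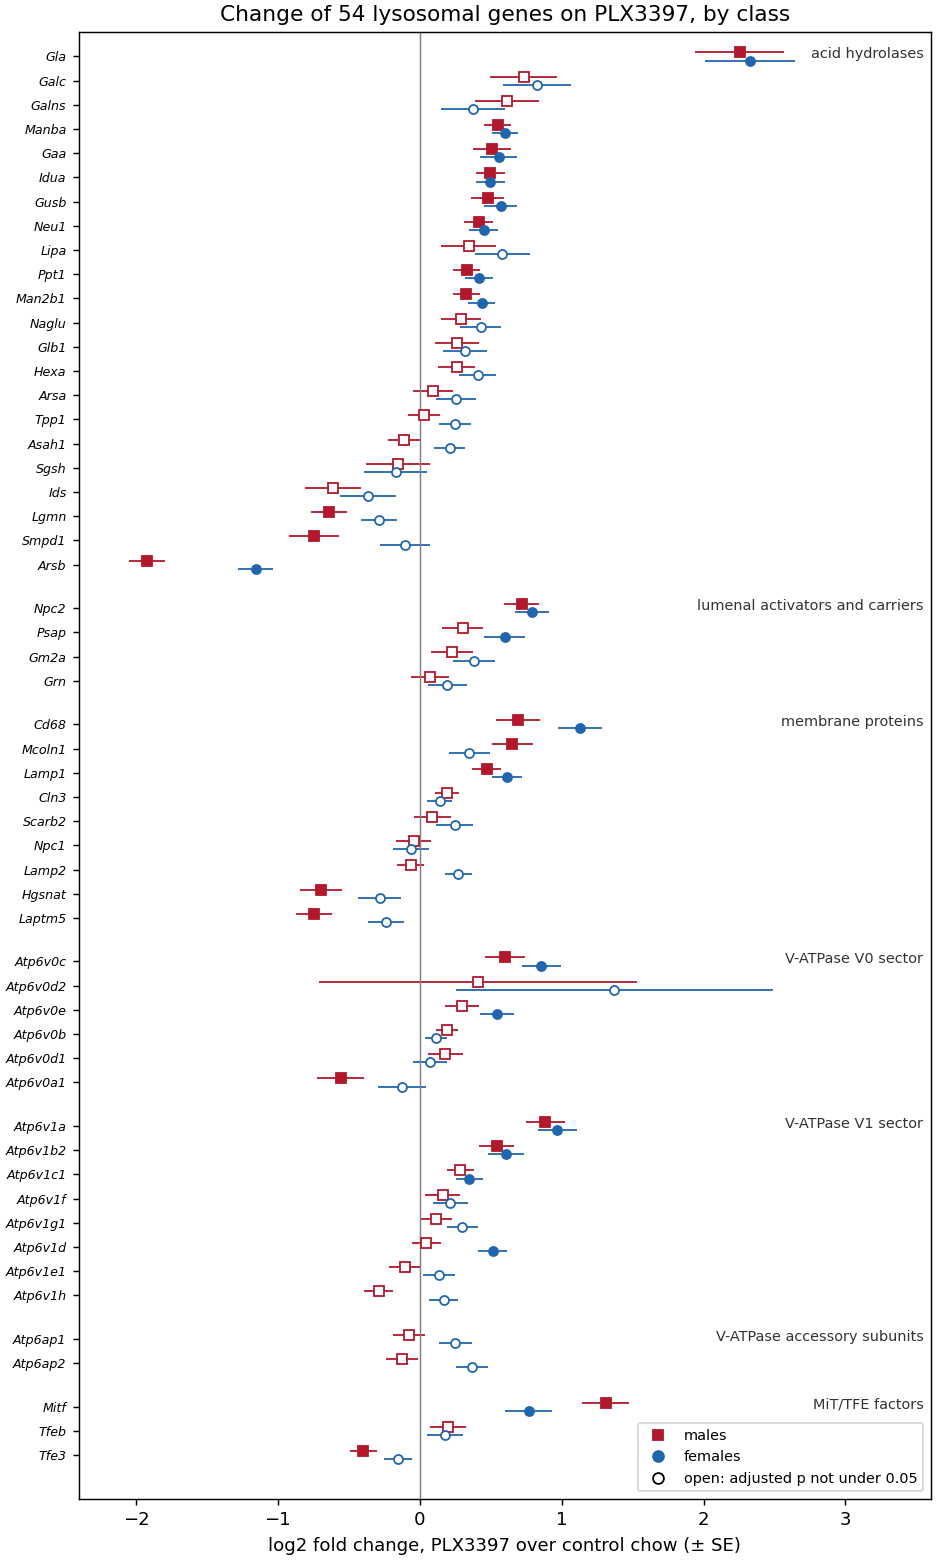
Log2 change on PLX3397 (horizontal axis, PLX3397 minus control, with bars of 1 SE) of the 54 measured genes, grouped by class; squares are males, circles are females, and open symbols have an adjusted p that is not under 0.05. Gla lies furthest to the right at 2.25 in males and 2.33 in females, and Arsb furthest to the left at -1.92 in males and -1.16 in females.

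The promoters of many lysosomal genes hold a motif of the MiT/TFE factors built around the core CACGTG. RefSeq promoter windows of build GRCm38.p6, which run from 250 bases before to 50 bases after each start site, were matched to 46 of the 55 listed genes. They were searched on both strands for CACGTG, which reads the same on both, and for GTCACGTG or its reverse complement, which contain the core. The core was found in 14 of the 46 genes (30.4%), against 8.09% of 27025 genes with a promoter in the same table. GTCACGTG was found in 11 of the 46 (23.9%), against 2.55% of those genes. By class the core was in 7 of 20 hydrolases, 3 of 8 membrane proteins, 3 of 5 V0 subunits, 1 of 4 V1 subunits, and none of the 4 lumenal proteins, 2 accessory subunits or 3 factors. Read by response, the core was in 4 of 14 matched genes that rose in both sexes (28.6%), in 7 of 21 called in neither (33.3%) and in 1 of 6 that fell in males (16.7%). GTCACGTG was in 2 of the 14 that rose in both sexes (14.3%), in 7 of the 21 called in neither (33.3%) and in 1 of the 6 that fell in males (16.7%). A match describes the letters of these windows and is not a measured binding site. The 7 windows of 100 bases below carry the core in capitals and were chosen to set genes that rose (Gla, Lamp1, Atp6v1a and Gaa in both sexes, Mcoln1 in males) beside one that fell in males (Lgmn) and one called in neither sex (Cln3). On the strand of the gene they lie at chrX:134601156-134601255 (minus strand), chr8:13159061-13159160 (plus), chr8:3500419-3500518 (plus), chr16:44139340-44139439 (minus), chr11:119267783-119267882 (plus), chr12:102439093-102439192 (minus) and chr7:126583317-126583416 (minus).
Gla: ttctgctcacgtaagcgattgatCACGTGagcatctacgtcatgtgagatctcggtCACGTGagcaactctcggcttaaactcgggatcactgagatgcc
Lamp1: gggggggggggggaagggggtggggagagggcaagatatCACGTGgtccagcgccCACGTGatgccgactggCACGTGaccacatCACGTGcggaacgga
Mcoln1: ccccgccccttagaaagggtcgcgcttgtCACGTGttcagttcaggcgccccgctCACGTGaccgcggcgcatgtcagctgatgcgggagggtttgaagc
Atp6v1a: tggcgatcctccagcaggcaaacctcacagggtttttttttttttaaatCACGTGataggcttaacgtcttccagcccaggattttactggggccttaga
Gaa: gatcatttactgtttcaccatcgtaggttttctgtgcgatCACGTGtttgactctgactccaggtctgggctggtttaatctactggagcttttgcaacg
Lgmn: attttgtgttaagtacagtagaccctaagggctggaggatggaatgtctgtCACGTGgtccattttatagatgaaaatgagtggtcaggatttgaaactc
Cln3: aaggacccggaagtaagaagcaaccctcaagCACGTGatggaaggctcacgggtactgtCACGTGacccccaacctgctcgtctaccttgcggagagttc

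Among the 22 acid hydrolases, 8 rose and 3 fell in males, and 8 rose and 1 fell in females; the median change was 0.31 in males and 0.41 in females. Gla, whose promoter window above holds the core at 2 places, encodes alpha-galactosidase A, which removes the terminal galactose from glycolipids. Its normalised counts were 1365, 804, 1194 and 1448 in males on PLX3397, against 161, 292, 301 and 254 in male controls. In females they were 1140.0, 1339, 1346 and 752 on PLX3397, against 286, 191, 359 and 122 on control chow. Every PLX3397 library lay far above every control library of its sex, and Gla rose by 2.25 ± 0.31 (SE, adjusted p = 0.000142) in males and by 2.33 ± 0.31 (SE, adjusted p = 0.000242) in females. It was still one of the less abundant hydrolases on PLX3397, at a mean of 379 ± 90.1 normalised counts per kilobase of exon in males and 361 ± 87.8 in females (SD, n = 4 each).

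Arsb encodes arylsulfatase B, which takes sulfate groups from dermatan and chondroitin sulfate. Its normalised counts were 3932, 3829, 3697 and 5075 in males on PLX3397, against 17049.6, 17072, 14382 and 13939 in male controls. In females they were 6046, 7082, 8132 and 8575 on PLX3397, against 18475, 16017, 15915 and 15608 on control chow. The PLX3397 libraries lay below all control libraries of their sex, and the males on PLX3397 below the females on PLX3397. The change of Arsb was -1.92 ± 0.12 (SE, adjusted p = 1.38e-07) in males and -1.16 ± 0.12 (SE, adjusted p = 2.85e-05) in females. The 2 changes differed by 0.77 ± 0.18 (SE, adjusted p = 0.208), female minus male, which was the smallest p of any member in that test.

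Among the enzymes that trim sugars from glycoproteins, Manba, Man2b1 and Neu1 rose in both sexes. Manba, the beta-mannosidase, had 5026, 4559, 4605 and 4524 normalised counts in males on PLX3397, against 3198, 3242, 3209 and 3137 in male controls. In females it had 5734, 4889.6, 5152 and 5059 on PLX3397, against 3433, 3110.3, 3213 and 4021 on control chow. The groups were apart in both sexes, with a change of 0.55 ± 0.092 (SE, adjusted p = 0.000753) in males and 0.60 ± 0.092 (SE, adjusted p = 0.000729) in females. Man2b1, the acid alpha-mannosidase, had 79649, 60031, 58216 and 78185 normalised counts in males on PLX3397, against 53308, 55393, 54995 and 54194 in male controls. In females the values were 68504, 77564, 78867 and 76791 on PLX3397, against 55849, 50352, 60803 and 55988 on control chow. Again no library overlapped between the 2 chows of a sex. The change was 0.33 ± 0.095 (SE, adjusted p = 0.034) in males and 0.44 ± 0.095 (SE, adjusted p = 0.0102) in females; the male call was lost without male PLX3397 replicate 1 or 4 or any 1 of the male controls (0.25 to 0.33, adjusted p = 0.0655 to 0.104).

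Neu1, the lysosomal sialidase, removes sialic acid from the ends of sugar chains. Its normalised counts were 6724, 6491, 5845 and 6733 in males on PLX3397, against 4979, 4540.1, 5169 and 4629 in male controls. In females they were 8229.9, 7364, 5749 and 6626 on PLX3397, against 4856, 4834, 5271 and 5357 on control chow. All PLX3397 libraries exceeded all controls of their sex, and the change was 0.42 ± 0.10 (SE, adjusted p = 0.0133) in males and 0.45 ± 0.10 (SE, adjusted p = 0.0145) in females. The female call was lost without female PLX3397 replicate 1 (0.37, adjusted p = 0.0552), as it was without female PLX3397 replicate 2 (0.42, adjusted p = 0.0505).

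A pair of enzymes of glycosaminoglycan breakdown rose in both sexes. Idua, alpha-L-iduronidase, had 7901, 6533, 7359 and 6500.4 normalised counts in males on PLX3397, against 5164, 5204, 4375 and 5284 in male controls. In females the counts were 7987, 6662, 6802 and 7293 on PLX3397, against 4864, 5513, 4538 and 5464 on control chow. The groups did not overlap, and the change was 0.50 ± 0.10 (SE, adjusted p = 0.00336) in males and 0.50 ± 0.10 (SE, adjusted p = 0.00637) in females. Gusb, beta-glucuronidase, had 25478, 20244, 21766 and 28567 in males on PLX3397, against 16289, 16003, 18361 and 17702 in male controls. In females Gusb had 25966, 23619, 31543 and 22282 on PLX3397, against 18925, 16204, 17982 and 16096 on control chow. Here too every PLX3397 library was above the controls, with a change of 0.48 ± 0.12 (SE, adjusted p = 0.0118) in males and 0.57 ± 0.12 (SE, adjusted p = 0.00675) in females. Arsb fell, as described above, and Hgsnat, read here with the membrane proteins, fell in males. Naglu, Sgsh, Galns, Glb1 and Ids, which also act on these polymers, were called in neither sex, with changes of 0.29, -0.15, 0.62, 0.26 and -0.61 in males and 0.43, -0.17, 0.38, 0.32 and -0.36 in females.

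Ppt1, which removes palmitate from proteins, rose by 0.33 ± 0.10 (SE, adjusted p = 0.0332) in males and by 0.42 ± 0.10 (SE, adjusted p = 0.015) in females, with 17325 to 21729 normalised counts in males on PLX3397, 14149.6 to 17187 in male controls, 18906 to 22917 in females on PLX3397 and 14419 to 17442 in female controls. Its male call was lost without male PLX3397 replicate 1 or 4 or male control replicate 2, 3 or 4 (0.28 to 0.34, adjusted p = 0.0652 to 0.103) and without both libraries that stood apart (0.31, adjusted p = 0.122). The female call of Ppt1 was lost without female PLX3397 replicate 1 or female control replicate 4 (0.37 to 0.38, adjusted p = 0.0551 to 0.0562). Gaa, the acid alpha-glucosidase of glycogen breakdown, rose by 0.51 ± 0.13 (SE, adjusted p = 0.0178) in males and by 0.56 ± 0.13 (SE, adjusted p = 0.0186) in females. Its normalised counts ran 10005 to 15615 in males on PLX3397, 8404 to 9164 in male controls, 13056 to 18060.0 in females on PLX3397 and 8805 to 11692 in female controls, with no overlap between chows in either sex. The male call of Gaa was lost without male PLX3397 replicate 4 (0.40, adjusted p = 0.0513) or both libraries that stood apart (0.53, adjusted p = 0.0656), and its female call without female PLX3397 replicate 1 or female control replicate 2 or 4 (0.47 to 0.51, adjusted p = 0.0616 to 0.0701).

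Lgmn and Smpd1 fell in males and were not called in females. Lgmn, whose promoter window also holds the core, encodes legumain, a protease that cuts after asparagine and also matures other lysosomal proteases. It had 122736, 83370.1, 90313 and 120631 normalised counts in males on PLX3397, against 167547, 162273, 159829 and 150427 in male controls. Female libraries had 139600.4, 142017, 142274 and 130644 on PLX3397, against 182607, 128516, 185565 and 187947 on control chow. The male groups were apart, and the female groups overlapped because 1 control library lay below all females on PLX3397. Lgmn changed by -0.64 ± 0.13 (SE, adjusted p = 0.00285) in males and -0.29 ± 0.13 (SE, adjusted p = 0.248) in females; the male fall was smaller after quantile normalisation (-0.28, adjusted p = 0.00697). Smpd1, acid sphingomyelinase, had 1918 to 3092 normalised counts in males on PLX3397, 3256 to 4460.4 in male controls, 3506 to 4475 in females on PLX3397 and 3356 to 5308 in female controls. It changed by -0.75 ± 0.18 (SE, adjusted p = 0.00971) in males, where the groups did not overlap, and by -0.10 ± 0.18 (SE, adjusted p = 0.847) in females. Without the libraries that stood apart the male change of Smpd1 was -0.59 (adjusted p = 0.0916).

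The other hydrolases called in neither sex were Galc, Hexa, Asah1, Lipa, Arsa and Tpp1, of which Galc, the galactosylceramidase of myelin lipids, came nearest to the threshold, with 0.73 ± 0.24 (SE, adjusted p = 0.0583) in males and 0.83 ± 0.24 (SE, adjusted p = 0.0546) in females. Over all hydrolases not called, changes ran from -0.61 to 0.73 in males and from -0.36 to 0.83 in females.

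The 4 lumenal activators and carriers had median changes of 0.26 in males and 0.49 in females. Npc2, which hands cholesterol to the membrane protein Npc1, had 29181, 21821, 22601 and 33908 normalised counts in males on PLX3397, against 16717, 16202, 15752 and 15611 in male controls. Among females there were 27689, 28166, 27699.9 and 23258 on PLX3397, against 16355, 13396, 16700.0 and 15334 on control chow. Both sexes had all PLX3397 libraries above all controls, and Npc2 rose by 0.72 ± 0.12 (SE, adjusted p = 0.000755) in males and by 0.79 ± 0.12 (SE, adjusted p = 0.00071) in females. Npc1, its partner in the membrane, changed by -0.044 ± 0.13 (SE, adjusted p = 0.882) in males and -0.063 ± 0.13 (SE, adjusted p = 0.869) in females, with overlapping groups.

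Psap encodes prosaposin, the precursor of the saposins that help hydrolases reach sphingolipids. It had 262232, 142303, 174514 and 214310.4 normalised counts in males on PLX3397, against 163243, 158567, 147904 and 157543 in male controls. Its counts in females were 267523, 269074, 217507 and 216970.2 on PLX3397, against 161874, 134485, 168769 and 175683 on control chow. The males on PLX3397 straddled their controls and the females on PLX3397 lay above theirs, with a change of 0.30 ± 0.14 (SE, adjusted p = 0.21) in males and 0.60 ± 0.14 (SE, adjusted p = 0.0189) in females. The female call was lost without female PLX3397 replicate 1 or 2 or female control replicate 2 (0.52 to 0.55, adjusted p = 0.0649 to 0.0659). Gm2a, the activator for ganglioside GM2, and Grn, progranulin, were called in neither sex: Gm2a changed by 0.23 in males and 0.38 in females, and Grn by 0.074 in males and 0.20 in females.

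Membrane proteins moved in both directions. Of 9 measured, 3 rose and 2 fell in males and 2 rose in females, with median changes of 0.088 in males and 0.25 in females. Cd68, a heavily glycosylated membrane protein of macrophage lysosomes, had 96967, 60075, 68502 and 91972 normalised counts in males on PLX3397, against 48632, 46201, 49629.9 and 48066 in male controls. The female values were 122599, 103497, 126758 and 81229 on PLX3397, against 57949.7, 40597, 51267 and 47246 on control chow. Each PLX3397 library was above each control of its sex, and the change was 0.69 ± 0.16 (SE, adjusted p = 0.00718) in males and 1.13 ± 0.16 (SE, adjusted p = 0.000288) in females. Lamp1, the main glycoprotein of the lysosomal membrane, whose promoter window holds the core at 4 places, had 98462, 69906, 72634 and 96856 normalised counts in males on PLX3397, against 61217, 60795, 60628 and 57996 in male controls. Its values in females were 94772, 94545, 87602 and 89906 on PLX3397, against 62043, 51820.4, 67822 and 58535 on control chow. No overlap was seen in either sex, and Lamp1 rose by 0.47 ± 0.10 (SE, adjusted p = 0.00626) in males and by 0.62 ± 0.10 (SE, adjusted p = 0.00152) in females. Lamp2, its relative on the X chromosome, was not called, with -0.065 ± 0.10 (SE, adjusted p = 0.745) in males and 0.27 ± 0.10 (SE, adjusted p = 0.133) in females.

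Laptm5, a transmembrane protein of lysosomes in blood-derived and myeloid cells, had 154265, 91228, 110276 and 145915 normalised counts in males on PLX3397, against 205649.9, 211960.1, 205063 and 198639 in male controls. In females it had 182205, 174043, 184879 and 193032 on PLX3397, against 236634, 180165, 227310.0 and 224552 on control chow. The male groups were well apart, while the female groups overlapped. Laptm5 changed by -0.74 ± 0.13 (SE, adjusted p = 0.000892) in males and -0.24 ± 0.13 (SE, adjusted p = 0.38) in females; after quantile normalisation the male change was -0.30 (adjusted p = 0.00305). Hgsnat, which acetylates heparan sulfate across the lysosomal membrane so that it can be degraded further, had 2525, 1771, 2517 and 1862 normalised counts in males on PLX3397, against 3709, 3673, 3403 and 3129 in male controls. In females the values were 3132, 2576, 3988 and 3542 on PLX3397, against 4019.8, 3533, 4574 and 3843 on control chow. All males on PLX3397 lay below their controls, and the females overlapped, with a change of -0.70 ± 0.15 (SE, adjusted p = 0.00503) in males and -0.28 ± 0.15 (SE, adjusted p = 0.365) in females.

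Mcoln1 encodes the lysosomal calcium channel mucolipin, and its promoter window holds the core at 2 places. Its normalised counts were 9816, 10358, 13137 and 9099 in males on PLX3397, against 7482, 7332, 6703 and 5398 in male controls. In females they were 10462, 7865, 7131 and 8936 on PLX3397, against 6234, 8005, 6649.7 and 5995 on control chow. The males on PLX3397 were above their controls and the female groups overlapped. Mcoln1 changed by 0.65 ± 0.15 (SE, adjusted p = 0.00661) in males and 0.35 ± 0.15 (SE, adjusted p = 0.216) in females, and in males by 0.44 without the libraries that stood apart (adjusted p = 0.0746). Scarb2, the receptor that carries beta-glucocerebrosidase to the lysosome, and Cln3 were called in neither sex; Scarb2 changed by 0.088 in males and 0.25 in females, and Cln3 by 0.19 in males and 0.14 in females.

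**Figure D2:**
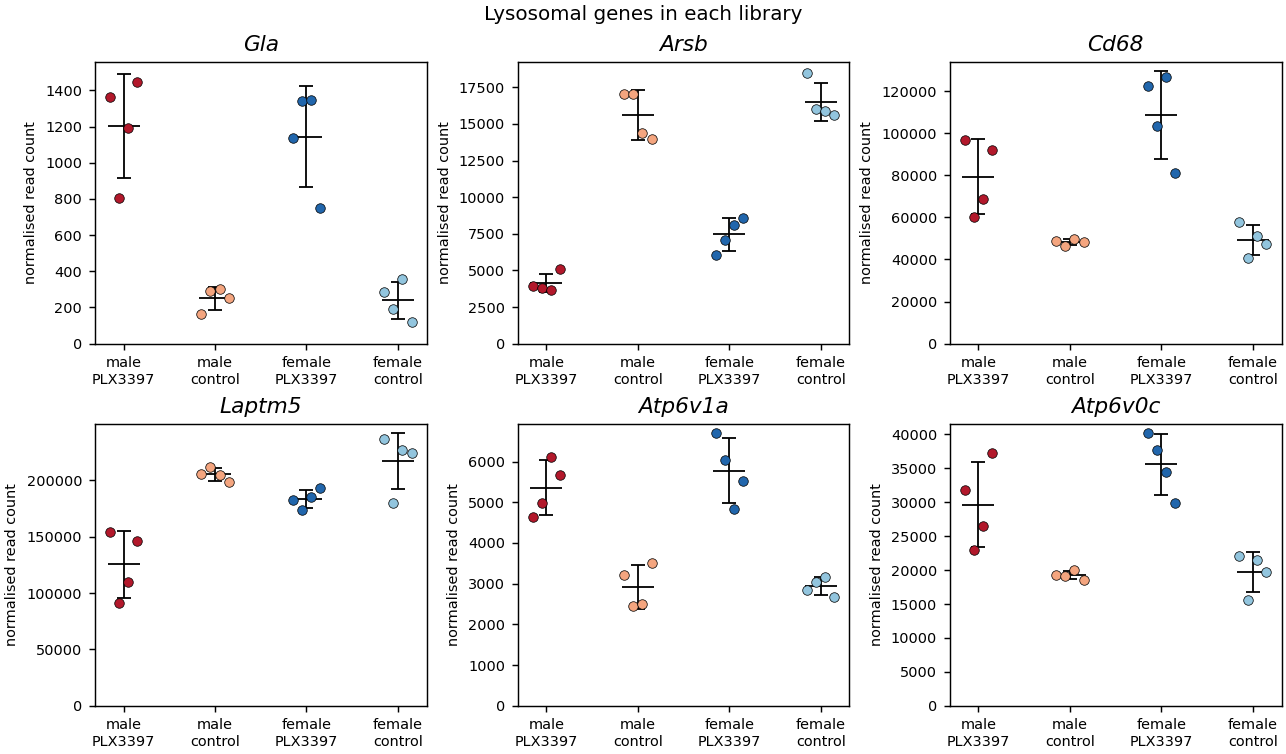
Normalised counts (vertical axes) of Gla, Arsb, Cd68, Laptm5, Atp6v1a and Atp6v0c in each library of the 4 groups, with the mean and SD of each group (n = 4). The PLX3397 libraries lie above the controls of both sexes for Gla, Cd68, Atp6v1a and Atp6v0c, below them for Arsb, and below them in males alone for Laptm5.

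Of the 16 subunits of the proton pump, 3 rose and 1 fell in males (25.0% called) and 6 rose in females (37.5%). Of the 38 members outside the pump, 13 rose and 6 fell in males (50%) and 13 rose and 1 fell in females (36.8%). In the V0 sector, which forms the proton path through the membrane, the median change was 0.25 in males and 0.33 in females. These medians include Atp6v0d2, described below, which had near-zero counts and uncalled changes of 0.41 in males and 1.37 in females. Both changes lay above the medians, so the medians without Atp6v0d2 would be lower. Atp6v0c, the proteolipid of the rotating ring, had 31881, 23016, 26446 and 37318 normalised counts in males on PLX3397, against 19271, 19172, 19947 and 18544 in male controls. In females the counts were 40289, 37766, 34458 and 29878 on PLX3397, against 22104, 15617, 21430.3 and 19727 on control chow. The groups were apart in both sexes, and Atp6v0c rose by 0.60 ± 0.14 (SE, adjusted p = 0.00831) in males and by 0.86 ± 0.14 (SE, adjusted p = 0.00106) in females. Reference names list pseudogenes of Atp6v0c, so its reads may be shared with near-identical copies.

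Atp6v0e, a small hydrophobic subunit, had 5454, 4016, 4692 and 5967 normalised counts in males on PLX3397, against 4102, 3909, 4259.6 and 3924 in male controls. Female libraries had 6382, 6049.5, 6431 and 5297 on PLX3397, against 4316, 3564, 4644 and 4081 on control chow. The female groups were apart and the male groups overlapped, with a change of 0.30 ± 0.12 (SE, adjusted p = 0.132) in males and 0.54 ± 0.12 (SE, adjusted p = 0.0115) in females. Atp6v0a1, an isoform of the large subunit through which protons pass, had 5929.7, 5065, 3633 and 7272 normalised counts in males on PLX3397, against 7903, 7720.0, 6719 and 9104 in male controls. In females the values were 7442, 6490.1, 7807 and 7227 on PLX3397, against 7004, 7024, 8641 and 9049 on control chow. Its groups overlapped in both sexes, and the change was -0.56 ± 0.17 (SE, adjusted p = 0.0394) in males and -0.12 ± 0.17 (SE, adjusted p = 0.792) in females. The male call of Atp6v0a1 was lost without male PLX3397 replicate 2 or 3 or male control replicate 1, 2 or 4 (-0.56 to -0.38, adjusted p = 0.0774 to 0.117), without both libraries that stood apart (-0.30, adjusted p = 0.260), with libraries brought to equal totals (-0.40, adjusted p = 0.101) and after quantile normalisation (-0.39, adjusted p = 0.132). Atp6v0b and Atp6v0d1 were called in neither sex. Atp6v0d2, known as the isoform of osteoclasts, was almost absent, at 3.02 to 11.9 normalised counts in males on PLX3397, 2.54 to 6.93 in male controls, 0 to 31.3 in females on PLX3397 and 0 to 22.8 in female controls.

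In the V1 sector, which hydrolyses ATP in the cytosol, the median change was 0.14 in males and 0.33 in females, with 2 of 8 subunits rising in males and 4 in females. Atp6v1a, the catalytic A subunit, had 4632, 4977, 6125 and 5682 normalised counts in males on PLX3397, against 3222, 2448, 2493 and 3509 in male controls. Among females there were 6704, 6040.1, 4835 and 5534 on PLX3397, against 2853, 3049, 3168 and 2664 on control chow. Both sexes were fully apart, and Atp6v1a rose by 0.88 ± 0.14 (SE, adjusted p = 0.000381) in males and by 0.97 ± 0.14 (SE, adjusted p = 0.000357) in females. Atp6v1b2, the B subunit that pairs with it in the ATP-binding ring, had 10354, 8863, 9139.5 and 9218 normalised counts in males on PLX3397, against 7359, 6676, 5059 and 6941 in male controls. Its female values were 9941, 9777, 9498 and 9865 on PLX3397, against 7495, 6176, 5098 and 7157 on control chow. The change was 0.54 ± 0.13 (SE, adjusted p = 0.0086) in males and 0.61 ± 0.13 (SE, adjusted p = 0.00703) in females, again without overlap.

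Atp6v1d, a subunit of the central stalk, had 3416, 3172, 3599 and 3613 normalised counts in males on PLX3397, against 3572, 3589, 3217 and 2994 in male controls. Its counts in females were 4879, 4725, 4059 and 4642 on PLX3397, against 3122, 3109, 3678 and 2927 on control chow. The female groups were apart and the male groups overlapped; the change was 0.048 ± 0.10 (SE, adjusted p = 0.831) in males and 0.51 ± 0.10 (SE, adjusted p = 0.00504) in females. Atp6v1c1, a subunit that links the 2 sectors, had 13588, 10638, 11313 and 10326 normalised counts in males on PLX3397, against 9507, 9543, 9289 and 9046 in male controls. The female values were 13430.5, 10798, 11559 and 11716 on PLX3397, against 9963, 9121, 9592 and 8527 on control chow. All PLX3397 libraries were above the controls of their sex, with 0.29 ± 0.093 (SE, adjusted p = 0.0572) in males and 0.35 ± 0.093 (SE, adjusted p = 0.0349) in females. The female call of Atp6v1c1 was lost without female PLX3397 replicate 1, 3 or 4 or female control replicate 2, 3 or 4 (0.29 to 0.37, adjusted p = 0.0575 to 0.120), with upper-quartile scaling (0.30, adjusted p = 0.051) and without both libraries that stood apart (0.35, adjusted p = 0.0619). Atp6v1e1, Atp6v1f, Atp6v1g1 and Atp6v1h were called in neither sex. Over the V1 subunits not called, changes ran from -0.29 to 0.29 in males and from 0.14 to 0.30 in females.

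Neither accessory subunit, Atp6ap1 or Atp6ap2 (also known as the prorenin receptor), was called on PLX3397 against control. Atp6ap1 changed by -0.076 ± 0.11 (SE, adjusted p = 0.751) in males and 0.25 ± 0.11 (SE, adjusted p = 0.271) in females. For Atp6ap2 the change was -0.13 ± 0.11 (SE, adjusted p = 0.548) in males and 0.37 ± 0.11 (SE, adjusted p = 0.0731) in females.

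The 3 MiT/TFE factors were not alike in their values. Mitf, the factor best known from pigment cells and osteoclasts, had 1534, 2197, 1736 and 1796 normalised counts in males on PLX3397, against 815, 701, 596 and 811 in male controls. In females it had 1396, 1027, 1236 and 1270.4 on PLX3397, against 819, 582, 642 and 873 on control chow. Every PLX3397 library exceeded every control, and the males on PLX3397 all exceeded the females on PLX3397. Mitf rose by 1.31 ± 0.17 (SE, adjusted p = 5.83e-05) in males and by 0.77 ± 0.17 (SE, adjusted p = 0.00979) in females.

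Tfe3, which lies on the X chromosome, had 10179, 8872, 8894 and 7573 normalised counts in males on PLX3397, against 11952, 12934, 10839 and 10930.4 in male controls. In females the counts were 8943, 10662, 9596 and 10886 on PLX3397, against 11475, 10527, 11345 and 11093 on control chow. The males on PLX3397 lay below their controls and the female groups overlapped, with a change of -0.40 ± 0.10 (SE, adjusted p = 0.0114) in males and -0.15 ± 0.10 (SE, adjusted p = 0.472) in females. The male call of Tfe3 was lost once libraries were brought to equal totals (-0.24, adjusted p = 0.149) and after quantile normalisation (-0.19, adjusted p = 0.234). Tfeb, the factor first tied to the lysosomal motif, had 5309, 3647, 3921 and 4000.3 normalised counts in males on PLX3397, against 4126, 3441, 3397 and 3634 in male controls. Female libraries had 3626, 3695, 4361 and 3837 on PLX3397, against 3085, 3242, 4082 and 3351 on control chow. Its groups overlapped in both sexes and it was not called, with 0.20 ± 0.13 (SE, adjusted p = 0.371) in males and 0.18 ± 0.13 (SE, adjusted p = 0.534) in females; with equal library totals the male change was 0.36 and was called (adjusted p = 0.0453).

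**Figure D3:**
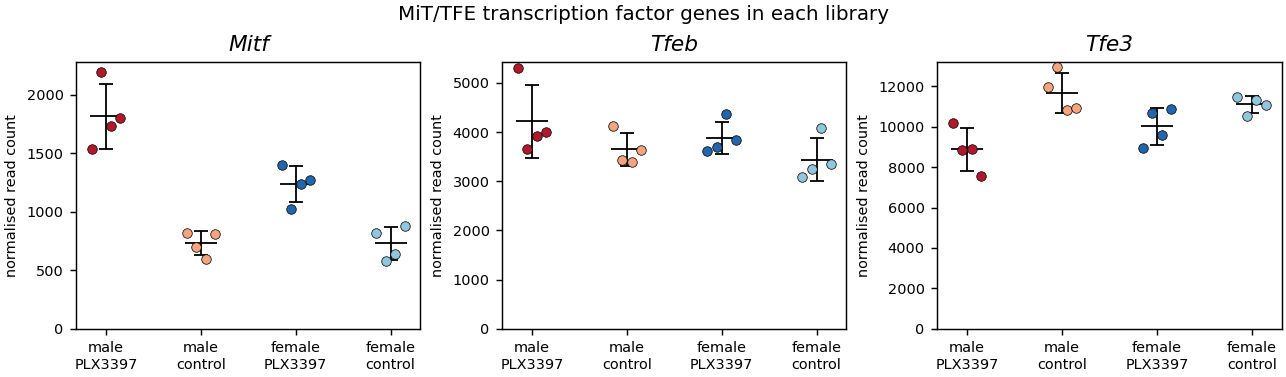
Normalised counts (vertical axes) of Mitf, Tfeb and Tfe3 in each library of the 4 groups, with the mean and SD (n = 4). Mitf is higher in all PLX3397 libraries than in all controls of the same sex, Tfeb overlaps in both sexes, and Tfe3 is lower in the males on PLX3397.

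Genes around the 54 were read from lists of the same pathway, where 11.7% of all genes tested were called in males and 5.34% in females. Among 19 other lysosomal hydrolases, 2 rose and 4 fell in males (31.6% called) and 3 rose in females (15.8%). Scpep1, a serine carboxypeptidase, rose by 0.51 ± 0.14 (SE, adjusted p = 0.0214) in males and 0.88 ± 0.14 (SE, adjusted p = 0.000779) in females. Dnase2a, the acid DNase, rose by 0.35 in males (adjusted p = 0.029) and 0.53 in females (adjusted p = 0.00388). Pla2g15, a lysosomal phospholipase, changed by -0.62 in males (adjusted p = 0.00108) and -0.11 in females (adjusted p = 0.708). Among 24 other membrane proteins and transporters, 2 rose and 4 fell in males (25% called) and 2 rose in females (8.33%). Cd63, a tetraspanin of late endosomes and lysosomes, had 51914, 38927, 42411 and 59743 normalised counts in males on PLX3397, against 14536, 14181, 15858 and 12525 in male controls. Its change of 1.74 ± 0.14 (SE, adjusted p = 8.67e-07) in males stood beside 1.99 ± 0.14 (SE, adjusted p = 5.53e-07) in females. Mfsd12 rose by 1.18 in males (adjusted p = 0.00111) and 0.88 in females (adjusted p = 0.0178). Slc29a3, a nucleoside transporter, fell in males (-0.63, adjusted p = 0.000142), as did Mfsd8 (-1.28, adjusted p = 0.00813); the female changes were -0.14 and -0.66, neither called.

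Among 12 other isoforms and assembly factors of the pump, 2 fell in males (16.7% called, near the 11.7% of all genes tested), and 1 rose and 1 fell in females (16.7%, against 5.34%). Atp6v0a2, another isoform of the large V0 subunit, fell in both sexes, with changes of -0.71 in males (adjusted p = 0.00133) and -0.55 in females (adjusted p = 0.0165). The assembly factor Ccdc115 changed by -0.61 in males (adjusted p = 0.00344) and -0.093 in females (adjusted p = 0.788), and Dmxl2 by 0.46 in males (adjusted p = 0.185) and 0.81 in females (adjusted p = 0.0268). Of 12 genes that sort enzymes to the lysosome, 2 rose and 2 fell in males (33.3% called), and 1 rose and 1 fell in females (16.7%). The adaptor Gga2 rose by 0.83 in males and 0.70 in females (adjusted p = 0.000526 and 0.00431). Sortilin (Sort1) fell, with changes of -0.67 in males and -0.57 in females (adjusted p = 0.00511 and 0.0276). Gga3 rose in males (0.46, adjusted p = 0.00898) and was not called in females (0.16, adjusted p = 0.494). Nagpa, which uncovers the mannose 6-phosphate tag, fell in males (-0.40, adjusted p = 0.0233) and was not called in females (0.055, adjusted p = 0.869).

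Of 14 regulators of the MiT/TFE factors, 5 rose in males (35.7%, where 4.16% of all genes tested were called higher) and 1 in females (7.14%, against 2.67%). Folliculin (Flcn) and its partners Fnip1 and Fnip2 act on the lysosomal surface in the nutrient signal that holds these factors in the cytosol. Fnip2 had 4015, 3160.4, 3396 and 3115 normalised counts in males on PLX3397, against 1712, 1262, 1335 and 889 in male controls. Among females there were 3664, 3128, 2357 and 2506 on PLX3397, against 1733, 1647, 1397 and 1773 on control chow. The groups were apart in both sexes, and Fnip2 rose by 1.43 ± 0.18 (SE, adjusted p = 6.19e-05) in males and by 0.81 ± 0.18 (SE, adjusted p = 0.0124) in females. Fnip1 rose in males by 0.75 (adjusted p = 0.00139) and Flcn by 0.60 (adjusted p = 0.00456); in females the changes were 0.36 and 0.34, neither called. Tfec, the fourth gene of the MiT/TFE family, had 265, 121, 40.2 and 135 normalised counts in males on PLX3397, against 1.37, 7.58, 0 and 3.54 in male controls. Its counts in females were 68.2, 145, 184 and 50.1 on PLX3397, against 22.6, 69.5, 0 and 2.09 on control chow. It was called in males (adjusted p = 0.00367), where the groups were apart, and not in females (adjusted p = 0.0684); with control values at or near 0, no fold is given.

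Class medians ran from -0.10 to 0.31 in males and from 0.18 to 0.49 in females. In males the median change was 0.31 for hydrolases, 0.26 for lumenal proteins, 0.088 for membrane proteins, 0.25 for V0, 0.14 for V1, -0.10 for the accessory subunits and 0.20 for the factors. In females it was 0.41, 0.49, 0.25, 0.33, 0.33, 0.31 and 0.18 in the same order. No difference between classes was tested, and several classes hold 2 to 4 genes. Read as a class mean per library, on log2 values centred on each gene's mean over all 16 libraries, the hydrolases were at -0.23 to 0.24 in males on PLX3397 against -0.22 to -0.11 in male controls, and at 0.15 to 0.30 in females on PLX3397 against -0.24 to 0.0024 in female controls. The lumenal proteins were at -0.24 to 0.43 in males on PLX3397 against -0.28 to -0.16 in male controls, and at 0.20 to 0.38 in females on PLX3397 against -0.42 to -0.027 in female controls. Membrane proteins overlapped in males as well, at -0.27 to 0.14 on PLX3397 against -0.16 to -0.057 on control chow. In females they did not, at 0.14 to 0.27 on PLX3397 against -0.20 to 0.052 on control chow. The V1 sector overlapped in males (-0.12 to 0.13 on PLX3397, -0.21 to -0.076 on control chow) and not in females (0.20 to 0.36 on PLX3397, -0.25 to -0.053 on control chow). The factors were apart in both sexes, at 0.14 to 0.35 in males on PLX3397 against -0.29 to -0.0010 in male controls and at 0.0018 to 0.13 in females on PLX3397 against -0.34 to -0.10 in female controls. Of these 3 genes only Mitf was called higher on the deposited scale, in both sexes; in males Tfe3 fell, and Tfeb was not called. The class median and the class mean of V0 both carried the near-zero counts of Atp6v0d2, and the mean overlapped in both sexes.

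**Figure D4:**
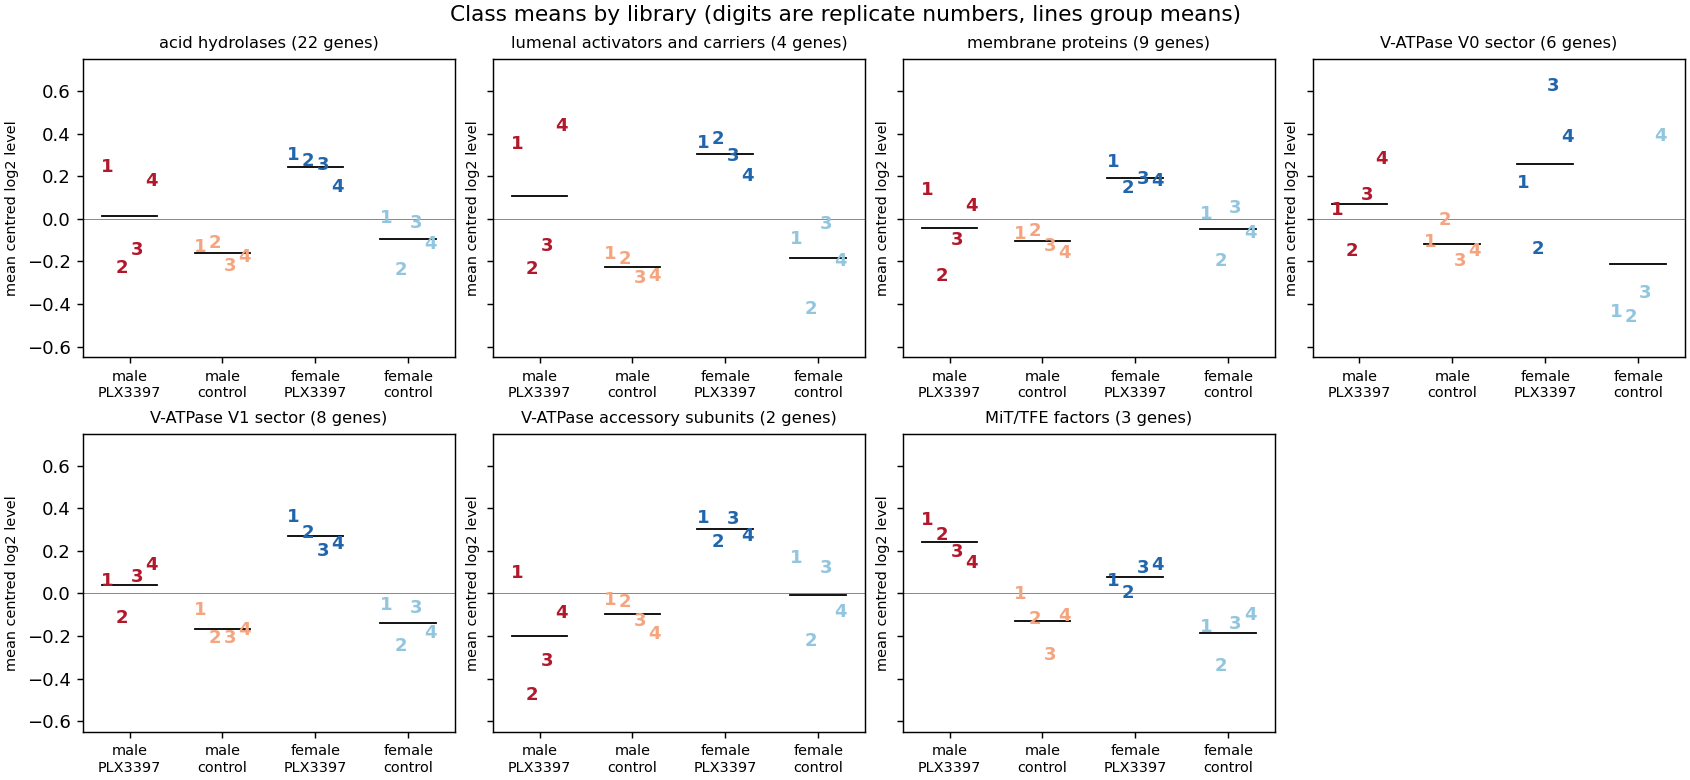
Mean over the genes of each class of log2(normalised count + 1), centred per gene on all 16 libraries (vertical axis), for each library of the 4 groups; digits are replicate numbers. Male PLX3397 replicates 2 and 3 lie below replicates 1 and 4 for the hydrolases, the lumenal proteins and the membrane proteins. In those 3 classes the females on PLX3397 span 0.15 to 0.30, 0.20 to 0.38 and 0.14 to 0.27, and in V0 they span -0.14 to 0.62.

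Libraries of males on PLX3397 were uneven at these genes. The median SD on the log2 scale over the 54 genes was 0.24 in males on PLX3397, 0.097 in male controls, 0.13 in females on PLX3397 and 0.17 in female controls, where all genes tested had 0.36, 0.31, 0.38 and 0.35. Male PLX3397 replicates 2 and 3, with totals of 32641505 and 35073649, were both below replicates 1 and 4, with 38968965 and 39584145, for 37 of the 54 genes (68.5%), against 3913 of the 19594 genes tested. With libraries scaled to equal totals this held for 28 of the 54 (51.9%), against 9.01% of all genes tested. The same scaling shifted the median change of all genes in males by 0.16 and that of females by -0.0052. Then 35 of the 54 were called in males, 30 higher and 5 lower, so that 85.7% of the called members were higher, against 69.6% on the deposited scale; after quantile normalisation the share was 84.4%. Over all genes tested the share of higher calls moved in the same direction, at 59.5% with equal totals (1348 higher and 917 lower) and 46.7% after quantile normalisation, against 35.6% on the deposited scale. The males' median change less that of all genes was 0.19 on the deposited scale, 0.20 with equal totals and 0.39 after quantile normalisation.

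**Figure D5:**
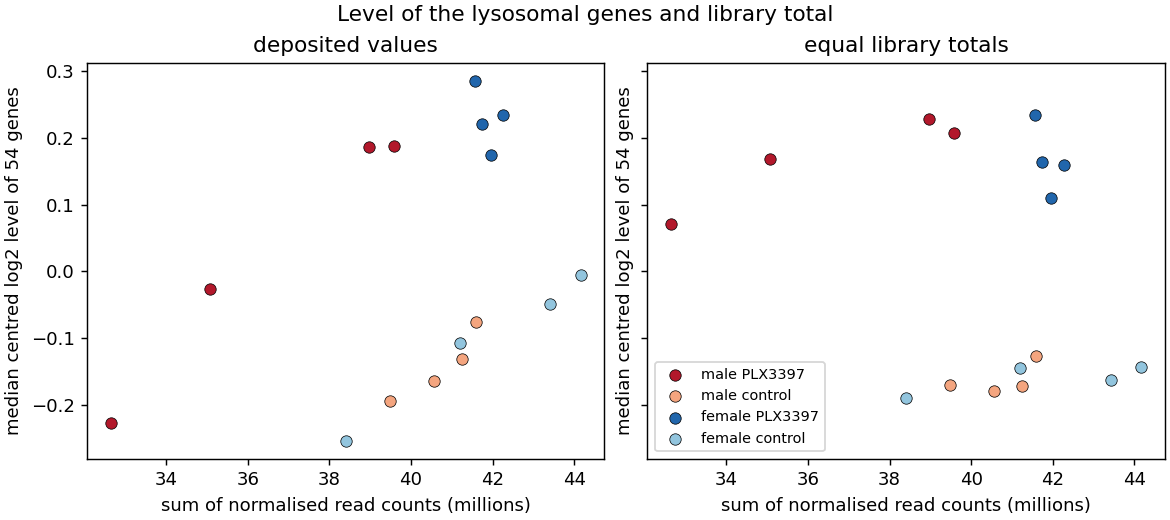
Median over the 54 genes of the centred log2 level (vertical axis) against the library total of normalised counts (horizontal axis) for the 16 libraries, on the deposited values (left) and with equal library totals (right). On the deposited values males on PLX3397 run from -0.23 to 0.19 with their totals, and with equal totals from 0.070 to 0.23, above the male controls at -0.18 to -0.13.

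Across the 54 genes, which are not independent of each other, the Pearson correlation of the female with the male change was 0.91. It was 0.83 without Gla and Arsb, against 0.44 over all genes tested. The median SE of a change was 0.29 over all genes tested, larger than that of most members printed here. Noise lowers a correlation, so the values are not like for like, and they are a description with no test. The test of the difference between responses called no gene of the 19594. At an unadjusted p under 0.05 it listed 2010 genes (10.3%) and 8 of the 54: Arsb, Atp6v1d, Atp6v1h, Atp6ap2, Laptm5, Smpd1 and Lamp2 with a more positive change in females and Mitf with a less positive one. For Atp6v1h, a regulatory subunit of V1, the difference was 0.46 ± 0.14 (SE, adjusted p = 0.291), and for Mitf it was -0.54 ± 0.23 (SE, adjusted p = 0.435).

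On PLX3397 itself, 8 of the 54 were called higher in females than in males and none lower, where 5.43% of all genes tested were called (4.28% higher and 1.15% lower). They were Arsb (0.85), Smpd1 (0.71), Atp6v1h (0.63), Hgsnat (0.61), Atp6ap2 (0.60), Laptm5 (0.58), Atp6ap1 (0.41) and Atp6v1d (0.41), as log2 differences, females minus males. On control chow none of the 54 was called, nor was any at an unadjusted p under 0.05, where 0.0663% of all genes tested were called and 5.19% had an unadjusted p under 0.05. Atp6v1h had 3921, 4373, 4050.4 and 3597 normalised counts in females on PLX3397, against 2772, 2539, 2470.4 and 2519.8 in males on PLX3397, and its difference was 0.63 ± 0.10 (SE, adjusted p = 0.00497). Atp6ap2 had 13676, 12453, 13338 and 12994 in females on PLX3397, against 10455, 7185, 8060.1 and 9362 in males on PLX3397, with 0.60 ± 0.11 (SE, adjusted p = 0.0089). For Atp6ap1 the values were 28635, 26829, 29182 and 26705 in females on PLX3397, against 26086, 17145, 19104 and 22545 in males on PLX3397, with 0.41 ± 0.11 (SE, adjusted p = 0.048). All 3 genes were higher in every female than in every male library on PLX3397. Over the 54, females on PLX3397 lay wholly above males on PLX3397 for 10 genes and wholly below for Mitf, with 6.76% and 5.36% of all genes tested in those positions, and on control chow Lipa (named after its values were seen) lay wholly above and none below, with 1.76% and 1.8%. Atp6ap1 and Atp6ap2 are among the 6 members on the X chromosome, with Gla, Ids, Lamp2 and Tfe3, and no other of these was called.

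These sex differences moved with the scaling. All 8 were positive on each scaling, but 46 of the 54 were higher in females on PLX3397 with the deposited values, 39 with upper-quartile scaling, 27 with equal totals and 26 after quantile normalisation. Equal totals shifted the median of all genes in this comparison by -0.20 and left 4 of the 8 called (Arsb, Atp6ap2, Atp6v1h and Laptm5) and Mitf called lower in females, so that 80% of the called members were higher, against 100% on the deposited values. Over all genes tested the calls turned round, with 196 higher and 375 lower in females on PLX3397 at equal totals (34.3% higher), against 838 higher and 226 lower on the deposited values (78.8% higher); after quantile normalisation 52.7% were higher. Without 1 library at a time the count ran from 4 to 14: it was 14 without male PLX3397 replicate 1, 4 without replicate 2 or 3, and 5 without female PLX3397 replicate 1, 2 or 3. The called share of all genes tested also moved, from 5.43% with all libraries. It was 5.82%, 1.69% and 2.39% without male PLX3397 replicate 1, 2 and 3. Without female PLX3397 replicate 1, 2 and 3 it was 4.12%, 3.46% and 2.45%. Arsb, Atp6ap2 and Atp6v1h were called in each of these fits. Laptm5 was lost without male PLX3397 replicate 3 (0.53, adjusted p = 0.0569), and Smpd1 without male PLX3397 replicate 2 or 3 or female PLX3397 replicate 1, 2 or 3 (0.60 to 0.73, adjusted p = 0.0501 to 0.107). Hgsnat was lost without male PLX3397 replicate 2 or 4 or female PLX3397 replicate 3 or 4 (0.51 to 0.57, adjusted p = 0.0541 to 0.10). Atp6v1d was lost without male PLX3397 replicate 2 or 3 or female PLX3397 replicate 1, 2 or 4 (0.37 to 0.43, adjusted p = 0.0578 to 0.0983). Atp6ap1 was lost without 12 of the 16 libraries in turn, the exceptions being male PLX3397 replicates 1 and 4 and female control replicates 1 and 2 (0.31 to 0.43, adjusted p = 0.0556 to 0.156). Without both libraries that stood apart, Laptm5 (0.53, adjusted p = 0.0723), Smpd1 (0.60, adjusted p = 0.113), Atp6v1d (0.43, adjusted p = 0.0632) and Atp6ap1 (0.36, adjusted p = 0.152) were not called. Marker genes differed in the same comparison: all 7 microglial markers were called higher in females on PLX3397 than in males on PLX3397, and 8 of 10 neutrophil markers were called lower. The neutrophil markers other than Csf3r summed to 980 to 3277 in females on PLX3397, against 10144 to 70771 in males on PLX3397. On control chow 4 of the 10 neutrophil markers, S100a8, S100a9, Ltf and Ngp, were called lower in females, and none of the microglial markers was called. The part of these cells in the sex differences of the lysosomal genes was not tested.

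Levels of different genes were compared per kilobase of exon, from the annotation GENCODE M21. On PLX3397 the most abundant of the 54 was Psap, at 72281 ± 18872 normalised counts per kilobase in males and 88472 ± 10746 in females, followed by Cd68 at 63150 ± 14223 in males and 86333 ± 16566 in females (SD, n = 4 each). On control chow Lgmn led, at 79296 ± 3548 per kilobase in males and 84816 ± 14129 in females, followed by Laptm5 at 78972 ± 2094 in males and 83525 ± 9693 in females. The order of Psap and Cd68 in both groups on PLX3397, and of Lgmn and Laptm5 in both control groups, lay within their SDs. The lowest of the 54 in every group was Atp6v0d2. Gla ranked 51 of 54 in both groups on PLX3397 and 53 in both control groups.

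Transcripts of other cells moved with the chow. Of 10 neutrophil markers, 8 were called higher in males on PLX3397 and 5 in females on PLX3397; their summed normalised count was 49039 to 110810 in males on PLX3397, 36274 to 37399 in male controls, 24249 to 35488 in females on PLX3397 and 29161 to 34170 in female controls, with S100a8, S100a9, Ly6g, Retnlg and Ltf at 0 in all female controls. Csf3r, which microglia also express, was not called on PLX3397 against control. It made up most of the sum in every library but male PLX3397 replicate 3, where it was 40039 of 110810. Without Csf3r the other 9 summed to 10144 to 70771 in males on PLX3397, 453 to 3389 in male controls, 980 to 3277 in females on PLX3397 and 203 to 271 in female controls. Of 8 markers of border-associated macrophages, 6 were called lower in males and 4 in females; they summed to 708 to 1137 in males on PLX3397, 2047 to 3185 in male controls, 1023 to 1492 in females on PLX3397 and 1686 to 3758 in female controls, with Lyve1 and Cd209f at 0 in all males on PLX3397. All 7 microglial markers were called lower in males and 6 of 7 in females. Neurons, astrocytes, oligodendrocytes, monocytes and endothelial cells had summed markers of at most 11415 in any library, and most of the astrocyte sum was Slc1a3, which was not called. The sums of neurons, astrocytes and oligodendrocytes overlapped between chows in both sexes. Monocyte markers summed to 686 to 6189 in males on PLX3397 against 347 to 675 in male controls. Chil3 made up 407 to 4879 of the sum in males on PLX3397, with its highest value in replicate 3. Ccr2 was at 83.9 to 256 in males on PLX3397 against 204 to 339 in male controls. Of the 4 monocyte markers tested, 2 had a positive and 2 a negative change in males. In females the monocyte sum was 239 to 613 on PLX3397 against 399 to 532. The endothelial sum, most of it Pecam1 in every library, was lower on PLX3397, at 407 to 570 against 966 to 1704 in males. In females this sum was 522 to 823 against 1328 to 1462. Of the 3 endothelial markers tested, 2 had a positive change in males, neither called, and all 3 had a negative change in females. Single markers of these cell types also moved with the chow, and are named after their values were seen. Mbp rose in both sexes, at 2229 to 3054 in males on PLX3397, 846 to 1605 in male controls, 1787 to 2440 in females on PLX3397 and 1011 to 1381 in female controls. Pecam1 fell in both sexes, Cnp fell in males, and Gfap rose in females, where its groups overlapped. No neuronal or monocyte marker was called on PLX3397 against control. The part of these cells in the levels of the lysosomal genes was not tested. With both libraries that stood apart left out, 19 of the 54 were called in males, 14 higher and 5 lower. In that fit 7.75% of all genes tested were called in males (538 higher and 980 lower).

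Several members share exon sequence with a neighbour in GENCODE M21, and no source used here says whether reads were counted by strand. For Ppt1 the neighbour is Cap1 (129 shared bases, opposite strand), for Idua it is Dgkq (124 bases, opposite strand) and for Cln3 it is Apobr (442 bases, opposite strand). Npc1 shares 511 bases with Rmc1 on the opposite strand. Arsb shares 1948 bases with the non-coding Gm26527 on the opposite strand, which had no values here, and Glb1 shares 165 with Tmppe on its own strand. Unless reads were counted by strand, those in the opposite-strand stretches could not be assigned to one gene of a pair. For Glb1 and Tmppe the strand would not separate them.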

How the data were processed

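RNA of sorted cortical microglia was amplified with a low-input cDNA kit and made into Nextera XT libraries, per the labels' protocols. The authors deposited 1 table of signal per gene and library, which by its name and values holds read counts scaled by a library factor (normalised counts). The submitters' processing notes list the build GRCm39 and the tools Salmon 1.5.2, featureCounts 2.0.1 with Subread, STAR 2.7.9a and bcl2fastq 2.19.1, without saying what each was used for; how the values were normalised, whether strand was used and which annotation was used are not given in the sources used here. Low values lay near multiples of a step of 0.522 to 1.825 that differed by library, which puts the reads at about 22868986 to 77708532, with males on PLX3397 at 30578596 to 40635000.0 and male controls at 44393416 to 77708532. The step was picked, to the nearest 0.001, for the share of the 1500 lowest values of a library within 0.1 of a multiple. That share was 85.1% to 95.9%, and 0.133% to 3.47% lay within 0.001 of a multiple. A step set this coarsely cannot decide whether the values stand for whole reads. Whole reads were not recovered and no count test was run.

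Identifiers were matched to symbols (51029 of 53850). The filter kept genes that reached 10 in 4 or more libraries, values were taken as log2(value + 1), and 1 mean per group was fitted over the 16 libraries with limma 3.58.1 (trended variance) in R 4.3.3, with two-sided tests and Benjamini-Hochberg adjustment over all 19594 genes. The fit was tested on simulated data. Figures were drawn with matplotlib 3.10.9. A log2 change on this scale understates the change of genes with low values. The comparisons were PLX3397 against control in each sex, the difference between those changes, and females minus males on each chow. Alternatives were other pseudocounts, filters and scalings, a replicate block, fits of only the groups compared, and libraries left out. Values in every library are given for up to 8 called members per class by smallest p, for the MiT/TFE factors and for pump subunits called between the sexes, and up to 4 called genes by smallest p are named from each other list; some genes of these lists are not reported here and are left out of the list counts and sums. The members and all lists were chosen with earlier results of these data known, so no test over a list was made.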

Additional observations from a re-analysis of the deposited data

Results flagged for a closer look

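Within a group of 4 libraries, 10 of 216 sets of member values held 1 library far from the other 3 (a gap to its nearest neighbour that took up most of the range, past Dixon's critical value); chance gives about 1 in 20. Among libraries on PLX3397, male replicate 1 had 5026 normalised counts of Manba, against 4524 to 4605 in the other 3. Female PLX3397 replicate 4 was low for Naglu, at 14697 against 18750 to 19123, and for Npc2, at 23258 against 27689 to 28166. Among male controls, replicate 3 was low for Idua, at 4375 against 5164 to 5284, and for Scarb2, at 7736 against 9151 to 9289, and replicate 4 was low for Grn, at 96882 against 108122 to 110263. Among female controls, replicate 1 was high for Arsb, at 18475 against 15608 to 16017. Female control replicate 2 was low for Lgmn, at 128516 against 182607 to 187947, and for Cln3, at 5615 against 6979 to 7170.3, and replicate 4 was high for Atp6v0d2, at 22.8 against 0 to 0.996. No cause was tested for any of these.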

How the results depend on the processing

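Of the members called, 16 of 23 in males, 15 of 20 in females and 0 of 8 between females and males on PLX3397 kept their call in all 26 alternatives, and none changed direction. With equal library totals 35 members were called in males and 5 between females and males on PLX3397, and the male class medians were 0.47 for hydrolases, 0.25 for membrane proteins, 0.30 for V1 and 0.36 for the factors. After quantile normalisation 5 were called between the sexes on PLX3397, and the male medians were 0.48 for hydrolases, 0.55 for lumenal proteins, 0.30 for membrane proteins, 0.30 for V1, 0.13 for the accessory subunits (-0.10 on the deposited scale) and 0.31 for the factors. Between the sexes on PLX3397, 0 members were called when only the 2 groups were fitted (6 residual degrees of freedom) and 4 without the libraries that stood apart. In those fits 0.225% and 1.76% of all genes tested were called. Leaving out 1 library at a time gave 20 to 25 called members in males, 15 to 22 in females and 4 to 14 between the sexes on PLX3397. Of all genes tested, 8.80% to 11.8%, 3.94% to 5.83% and 1.69% to 6.34% were called in the same order. The male medians were 0.18 to 0.39 for hydrolases, 0.15 to 0.40 for lumenal proteins and 0.020 to 0.15 for membrane proteins. They were 0.18 to 0.33 for V0, 0.042 to 0.23 for V1, -0.20 to -0.0080 for the accessory subunits and 0.083 to 0.26 for the factors. Of these, V1 was lowest without male PLX3397 replicate 4 and V0 without replicate 3, and the other 5 without replicate 1; without replicate 4 the median was 0.18 for lumenal proteins and 0.026 for membrane proteins. Membrane proteins were at 0.025 without male control replicate 3 and 0.15 without male PLX3397 replicate 3, and the accessory subunits at -0.062 without that library too; hydrolases were highest without replicate 3 and the other classes without replicate 2. The causes were not tested. A fit with only the groups of a comparison gives no value for the difference between responses. Deviations from group means had correlations of -0.045 to 0.12 over 24 pairs of same-numbered libraries. Over 72 pairs with other numbers they were -0.070 to 0.049. Of 16 libraries, 2 were nearest to one of their own number. The labels do not say that the replicate numbers pair samples, and these correlations cannot exclude shared handling. With the replicate number as a block, 23 members were called in males, 20 in females, 0 for the difference between responses, 6 between the sexes on PLX3397 and 0 on control chow. Of all genes tested, 10.9% were then called in males, 4.91% in females, 4.40% between the sexes on PLX3397 and 0.0612% on control chow. The 23 in males were not the same genes: Man2b1 was not called (0.33, adjusted p = 0.0520) and Atp6v1c1 was (0.29, adjusted p = 0.0296). Between the sexes on PLX3397, Smpd1 (0.71, adjusted p = 0.0504) and Atp6v1d (0.41, adjusted p = 0.0514) were not called. With 4 libraries a group, Atp6v0d2 at a few counts could not be read, though it enters the V0 medians.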
